A study of Mus musculus with 8 samples.

Results

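The genes described here mark the alveolar macrophage of the mouse lung. They are Marco, Itgax, Fabp1, Pparg, Krt79, Atp6v0d2, Plet1, Mrc1, Bhlhe41 and Ear1, and each was taken from the probe sets that carry its symbol alone in the annotation of the arrays. Of the 10 genes 9 had such a probe set, and Ear1 had none and is named only. The 9 genes had 15 probe sets among the 45037 tested, and 18193 genes in all had a probe set with a single symbol. Where a gene had several probe sets, the one with the highest mean level stands for it, and the other 6 probe sets serve as a check.

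Adult female C57BL/6 mice, 10 to 12 weeks old, underwent left unilateral pneumonectomy (PNY) or sham thoracotomy (SHAM), in which the chest was opened and no lung was removed. Mice of both groups were anesthetized, intubated and ventilated, and received ampicillin and buprenorphine. Perfused lung tissue was taken at 6 hours and at 1, 3 and 7 days after surgery, and Affymetrix mouse arrays measured its RNA. There was 1 array per surgery and time point, with tissue of 8 mice pooled on each, so 4 arrays stand for PNY and 4 for SHAM. A pool gives a mean over its mice and no spread between them. PNY arrays hold the lung that remained after surgery, while SHAM mice kept both lungs. Whole tissue was measured, so fewer alveolar macrophages, less RNA per macrophage and a larger share of RNA from other cells cannot be told apart.

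Alveolar macrophages live on the air side of the alveolus, where they take up particles, microbes and spent surfactant. In mice they settle shortly after birth under the cytokine GM-CSF, which turns on the nuclear receptor PPARγ and with it a program of lipid handling, and they then renew themselves within the lung. Marco is a scavenger receptor for particles and bacteria, Itgax encodes the integrin chain CD11c, and Mrc1 encodes the mannose receptor CD206. Pparg encodes PPARγ itself, Fabp1 a fatty acid binding protein best known from liver, and Atp6v0d2 a subunit of the proton pump that acidifies lysosomes. Krt79 is a keratin and Plet1 a protein anchored on the cell surface, and both are used as alveolar macrophage markers in mouse lung. Bhlhe41 is a transcriptional repressor that maintains the identity of these cells and also takes part in the circadian clock. Ear1 belongs to a family of ribonucleases with closely alike members.

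The sequences upstream of 4 of these genes are shown, and the genes were picked by the values below. A link between these sequences and the levels was not tested. Fabp1 and Krt79 had the largest mean differences between PNY and SHAM, Marco and Krt79 differed between time points, and Bhlhe41 is the clock repressor of the group. Each is the 250 bases before the start of the gene in RefSeq, build GRCm38.p6, read 5′ to 3′ on the strand of the gene. Fabp1 is on the plus strand (chr6:71199629-71199878), and the minus strand holds Bhlhe41 (chr6:145865421-145865670), Marco (chr1:120505025-120505274) and Krt79 (chr15:101940325-101940574). Capitals mark matches to the motifs named after the sequences.
Fabp1: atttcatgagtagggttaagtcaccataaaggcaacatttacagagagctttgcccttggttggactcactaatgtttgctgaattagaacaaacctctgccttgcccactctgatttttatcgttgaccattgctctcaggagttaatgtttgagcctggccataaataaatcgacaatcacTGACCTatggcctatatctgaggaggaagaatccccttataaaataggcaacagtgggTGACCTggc
Bhlhe41: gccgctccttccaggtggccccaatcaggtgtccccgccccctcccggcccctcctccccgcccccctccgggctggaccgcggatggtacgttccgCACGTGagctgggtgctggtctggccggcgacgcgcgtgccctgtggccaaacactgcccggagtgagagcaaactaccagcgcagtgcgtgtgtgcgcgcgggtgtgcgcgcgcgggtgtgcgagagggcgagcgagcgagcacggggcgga
Marco: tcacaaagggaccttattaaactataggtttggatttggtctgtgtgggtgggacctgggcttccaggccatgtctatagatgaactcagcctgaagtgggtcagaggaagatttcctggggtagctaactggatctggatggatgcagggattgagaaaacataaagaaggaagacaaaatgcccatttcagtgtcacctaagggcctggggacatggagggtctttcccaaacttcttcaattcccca
Krt79: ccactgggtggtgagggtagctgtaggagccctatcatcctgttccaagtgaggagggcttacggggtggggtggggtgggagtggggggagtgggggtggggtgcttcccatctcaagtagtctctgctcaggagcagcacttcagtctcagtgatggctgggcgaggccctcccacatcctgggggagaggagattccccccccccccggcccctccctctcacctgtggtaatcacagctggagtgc

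The windows were searched on both strands for exact matches to 4 motifs. These included the nuclear receptor site AGGTCA and the direct repeat DR1 of this site with 1 base between, which PPARγ binds with RXR. The others were the E-box CACGTG of clock factors and the sequence GAGGAAGT of PU.1, a factor of all macrophages. The single site lies inside the DR1, so these matches overlap. Among all 32851 windows 14% held the single site, 0.0335% the DR1, 6.02% the E-box and 2.44% the PU.1 sequence. RefSeq windows were found for 9 of the 10 genes, Ear1 among them, and Atp6v0d2 had none. Fabp1 held the single site at both places in capitals, from -67 to -62 and from -9 to -4 relative to the start (-1 is the base just before it), each read on the opposite strand. Pparg held it from -28 to -23 in 1 of its 3 windows and from -9 to -4 in another, and Plet1 held it from -62 to -57, on the opposite strand. Bhlhe41 held 1 E-box, from -153 to -148. The windows of Marco, Krt79, Itgax, Mrc1 and Ear1 held no exact match to the 4 motifs. No window of the 9 genes held an exact DR1 or GAGGAAGT. Sites with a mismatch were not searched for, so a variant of either motif may be present.

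All values are log2 expression, so a difference of 1 is a doubling. The array medians lay within 0.05 of each other at about 5.92, and 8 of the 9 genes had a mean level above it, while Bhlhe41, with 5.23, lay below. The PNY array of 1 day stood apart by genes of T cells and thymocytes. The median level over 11 such genes, listed after the values had been seen, was 5.80, 8.26, 6.60 and 6.35 in PNY at 6 hours and 1, 3 and 7 days, against 5.96, 6.38, 6.80 and 6.75 in SHAM. Rag1, which rearranges antigen receptor genes in developing lymphocytes, had 9.60 on that array, against 3.62 on the SHAM array of 1 day. The SHAM array of 7 days stood apart by genes of the macrophages of the serous cavities. Serpinb2 had 5.10 in PNY and 8.68 in SHAM at 7 days, and Alox15 had 5.63 in PNY and 8.03 in SHAM.

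No alveolar macrophage gene differed between PNY and SHAM beyond the thresholds of the rank product test. Of the 9 genes 0 passed the rank product test over the 16 pairs of arrays (a threshold of 0.001 for its P-value, with a minimal 1.5-fold change up or down), which 0.315% of all probe sets passed upward and 0.0555% downward. The mean level was lower in PNY for 8 of the 9 genes and higher for Marco, and the median of the 9 mean differences was -0.11, beside 0.00 for all probe sets. Without both arrays of 1 day 6 of the 9 were lower, and without the PNY array of 1 day the median was -0.03. In limma, 0 genes and 0% of all probe sets had an adjusted p under 0.05 without a term for the time point and likewise 0% with the time point as a block. The lowest limma adjusted p among the genes was 1.00 without the block and 0.753 with it. At an unadjusted p under 0.05, limma gave 0 of the 9 genes and 902 probe sets without the block and 2 genes, Fabp1 and Krt79, and 2484 probe sets with it. The exact permutation test over the 70 splits of the arrays (two-sided) gave a median p of 0.543 over the 9 genes, with 0.114 for Fabp1 and 0.286 for Krt79. The lowest was 0.0286 for Plet1, the smallest value this test can give, which groups that do not overlap always receive.

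**Figure D1:**
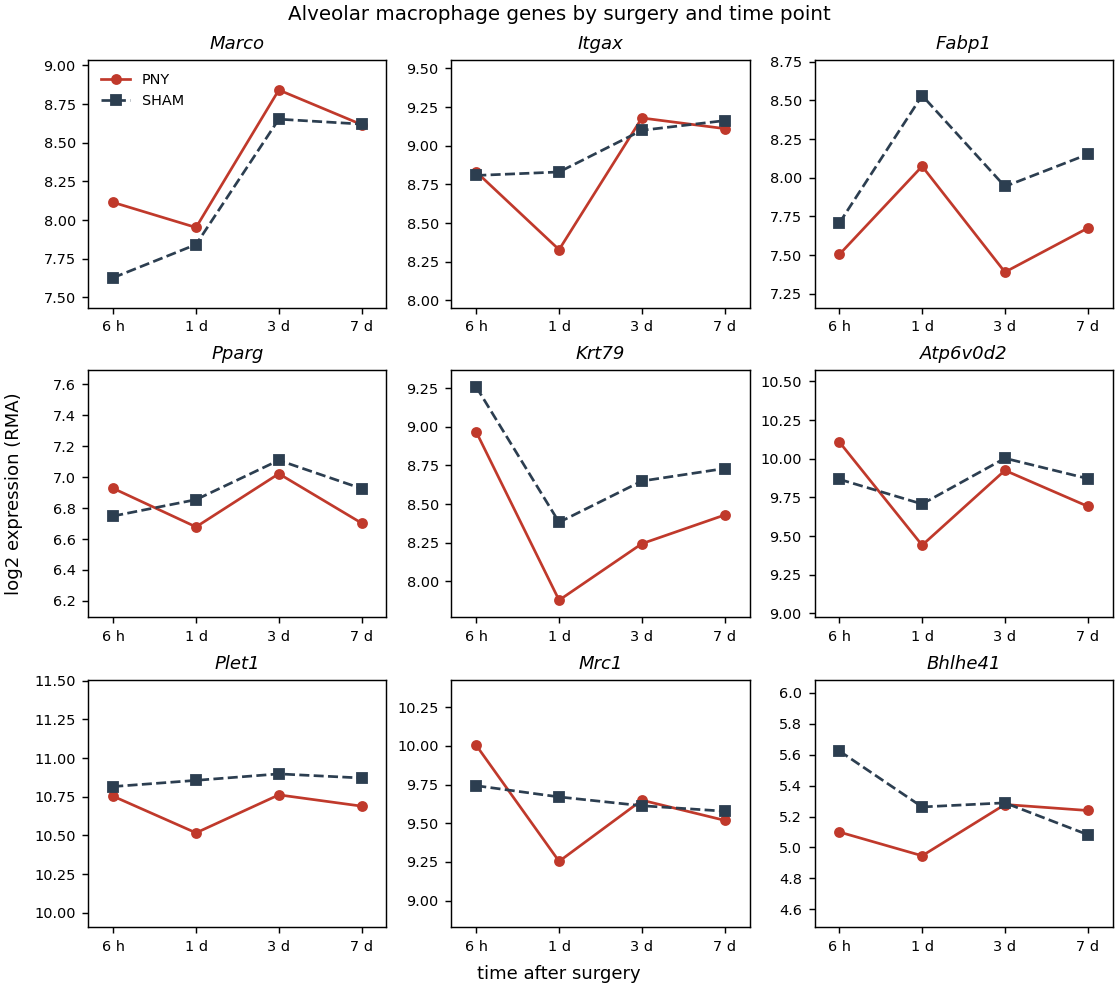
Log2 expression of the 9 alveolar macrophage genes (vertical axes, which span the same length in each panel) at 6 hours and 1, 3 and 7 days after surgery (horizontal axis), with PNY as red circles and SHAM as dark squares. Each point is 1 array of 8 pooled mice. Fabp1, Krt79 and Plet1 lie lower in PNY at every time point, and 7 of the 9 genes have their lowest point on the PNY array of 1 day.

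The lipid genes of the group are Fabp1 and Pparg. Fabp1 had 7.50, 8.07, 7.39 and 7.67 in PNY at 6 hours and 1, 3 and 7 days, against 7.71, 8.53, 7.94 and 8.15 in SHAM. PNY was thus lower at each time point, by 0.20, 0.46, 0.55 and 0.48, while the ranges of the surgeries overlapped, and both were highest at 1 day. Fabp1 averaged 7.66 ± 0.30 in PNY and 8.08 ± 0.35 in SHAM (SD, n = 4 arrays each), and the difference was -0.42 ± 0.15 (SD over 4 time points), a fold change of -1.34, with a rank product P-value of 0.0024 downward. The limma interval at 95% ran from -0.85 to 0.01, and from -0.63 to -0.21 with the time point as a block. The other probe set of Fabp1 was also lower at all 4 time points, by -0.52 in the mean (fold change -1.43). Its rank product P-value of 0.00054 passed the threshold, and its fold change did not.

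Pparg had 6.93, 6.68, 7.02 and 6.70 in PNY, against 6.75, 6.85, 7.11 and 6.93 in SHAM. It was higher in PNY at 6 hours and lower at the other 3 time points, and the surgeries overlapped. The mean difference was -0.08 ± 0.18 (SD over 4 time points), with a limma interval from -0.34 to 0.18, so a fold change of 1.5 (0.58 on the log2 scale) lies outside it in either direction.

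Krt79 and Plet1, the keratin and the surface protein, also lay lower in PNY at every time point. Krt79 had 8.97, 7.88, 8.24 and 8.43 in PNY, against 9.26, 8.38, 8.65 and 8.73 in SHAM. Its differences were close to one another, between -0.29 and -0.50, while its range over time was wide enough for the surgeries to overlap. It averaged 8.38 ± 0.45 in PNY and 8.75 ± 0.37 in SHAM (SD, n = 4 arrays each), and the difference was -0.38 ± 0.10 (SD over 4 time points), a fold change of -1.30, with a rank product P-value of 0.0024 downward. The limma interval ran from -0.90 to 0.15, and from -0.57 to -0.18 with the time point as a block.

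Plet1 had 10.75, 10.52, 10.76 and 10.69 in PNY, against 10.82, 10.86, 10.90 and 10.87 in SHAM. It was the 1 gene of the 9 whose surgeries did not overlap, with the highest PNY array below the lowest SHAM array, as was so for 1.45% of all probe sets in either direction. The mean difference was small, -0.18 ± 0.12 (SD over 4 time points), with a limma interval from -0.38 to 0.02. The other 2 probe sets of Plet1 overlapped between surgeries, with mean differences of -0.19 and -0.00. Fabp1, Krt79 and Plet1 make 3 of 9 genes lower in PNY at every time point, beside 6.05% of all probe sets, and 0 genes were higher at every time point. With the mean of all probe sets of a gene the count was 2, as Plet1 dropped out. Its other 2 probe sets were higher in PNY at 6 hours, by 0.12 and 0.011, and at 7 days, by 0.0068 and 0.30. Without both arrays of 1 day the count of genes lower at every remaining time point was again 3.

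The 3 receptors differed in the direction and timing of their differences. Marco had 8.11, 7.95, 8.84 and 8.62 in PNY, against 7.63, 7.84, 8.65 and 8.62 in SHAM. It was higher in PNY at the first 3 time points and level at 7 days, and its mean difference was 0.20 ± 0.21 (SD over 4 time points), with a limma interval from -0.41 to 0.80. Its other probe set had a mean difference of 0.03.

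Itgax had 8.83, 8.33, 9.18 and 9.11 in PNY, against 8.81, 8.83, 9.10 and 9.16 in SHAM. The surgeries lay within 0.08 of each other except at 1 day, when PNY was lower by 0.50. Its mean difference of -0.11, with a limma interval from -0.52 to 0.29, turned to 0.02 without both arrays of 1 day. Mrc1 had 10.00, 9.25, 9.65 and 9.52 in PNY, against 9.74, 9.67, 9.61 and 9.58 in SHAM. PNY was higher by 0.26 at 6 hours and lower by 0.42 at 1 day, and its mean difference of -0.04, with a limma interval from -0.37 to 0.28, turned to 0.08 without both arrays of 1 day.

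Atp6v0d2, the proton pump subunit, had 10.11, 9.44, 9.92 and 9.69 in PNY, against 9.87, 9.71, 10.00 and 9.87 in SHAM. It was higher in PNY at 6 hours and lower afterwards, with a mean difference of -0.07 ± 0.22 (SD over 4 time points) and a limma interval from -0.39 to 0.25. Its other probe set followed the same order, with a mean difference of -0.08. Bhlhe41 had 5.10, 4.95, 5.28 and 5.24 in PNY, against 5.62, 5.26, 5.29 and 5.08 in SHAM. The repressor was lower in PNY by 0.52 at 6 hours and 0.32 at 1 day, level at 3 days and higher by 0.16 at 7 days. Its mean difference was -0.17 ± 0.30 (SD over 4 time points), with a limma interval from -0.46 to 0.12.

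**Figure D2:**
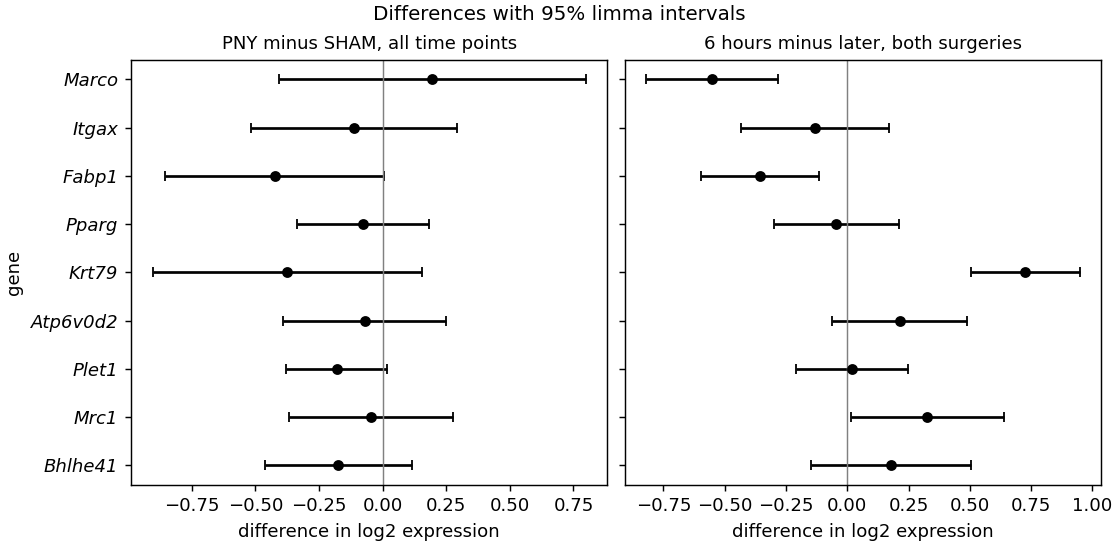
Differences in log2 expression of the 9 genes (horizontal axes) with limma 95% intervals as bars. On the left, PNY minus SHAM over the 4 arrays of each surgery, where every interval reaches 0. On the right, 6 hours minus the mean of the later time points over both surgeries, where Marco lies at -0.55 and Krt79 at 0.73.

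At single time points no gene reached a fold change of 1.5 between PNY and SHAM, and the largest difference was that of Fabp1 at 3 days, 0.55 on the log2 scale. Of all probe sets 2.25% did so at 6 hours, and 3.78%, 1.93% and 3.64% did so at the later time points in turn. The difference between surgeries also passed no test for a change from the earlier time points (6 hours and 1 day) to the later ones (3 and 7 days), where limma called 0 of the 9 genes and 0% of all probe sets and 1246 probe sets and 0 genes had an unadjusted p under 0.05. Bhlhe41 came nearest among the genes, with a change of 0.49, a limma interval from -0.03 to 1.01 and a limma adjusted p of 1.00. Its other probe set changed by 0.93, with an unadjusted p of 0.0025 and a limma adjusted p of 1.00. That probe set has a mean level of 3.95, near the bottom of the array scale.

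The array on which most of the genes were low was the PNY array of 1 day. It held the lowest of the 8 values for 7 of the 9 genes (Itgax, Pparg, Krt79, Atp6v0d2, Plet1, Mrc1 and Bhlhe41), while 15.2% of all probe sets had their lowest value there. The exceptions were Marco, lowest on the SHAM array of 6 hours, and Fabp1, lowest on the PNY array of 3 days. With each gene centred on its own mean, the mean over the 9 genes was 0.04, -0.32, 0.04 and -0.03 in PNY at 6 hours and 1, 3 and 7 days, against 0.03, -0.00, 0.14 and 0.11 in SHAM. The PNY array of 1 day was thus the lowest, and the other 7 arrays lay between -0.03 and 0.14.

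**Figure D3:**
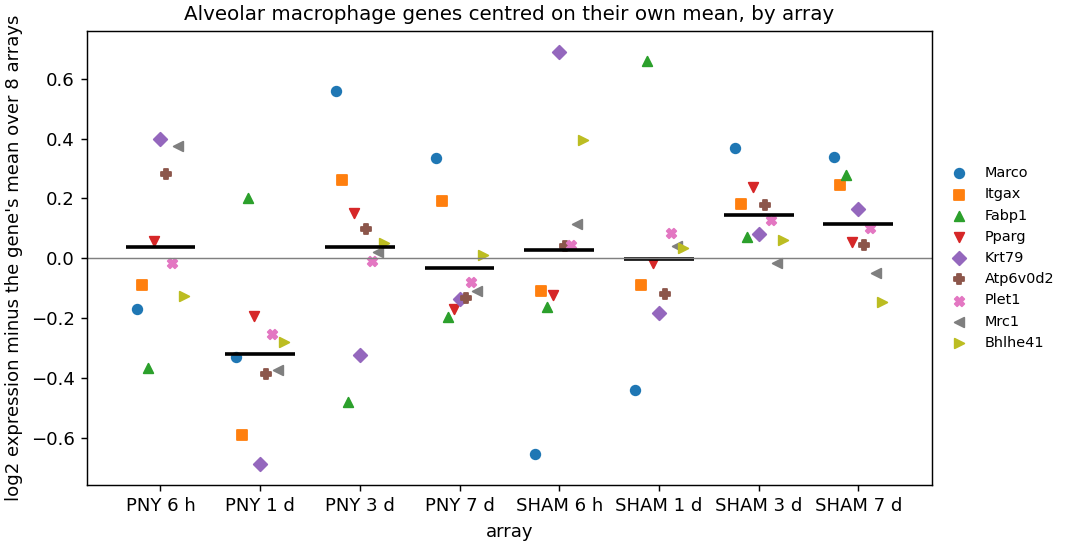
Log2 expression of the 9 genes on each of the 8 arrays, as the difference from the mean of the gene over all arrays (vertical axis), with 1 symbol per gene and the mean over the genes as a black bar. The bar of the PNY array of 1 day is at -0.32, with 8 of 9 genes below their own mean.

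The median difference between surgeries was also lowest at 1 day, and it includes that same PNY array. The median over the 9 genes of PNY minus SHAM was 0.02 at 6 hours and -0.34 at 1 day, followed by -0.08 at 3 days and -0.18 at 7 days, while the median over all probe sets stayed within 0.01 of 0. At 1 day 8 genes were lower in PNY and 1 was higher, and at 7 days again 8 and 1. At 6 hours 4 were lower and 5 higher, and at 3 days 6 and 3. With 1 array per surgery at each time point there is no test of these medians. On the same PNY array of 1 day 11 of 11 T cell and thymocyte genes were higher than in SHAM, with a median difference of 1.27, and the part of this in the low alveolar macrophage values was not tested.

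Low values on the PNY array of 1 day were also common in some other lists, not all of them of macrophages, with smaller median differences. Among 28 other alveolar macrophage genes measured, 0 passed the rank product test in either direction, and the median differences were 0.09, -0.03, 0.06 and -0.04 at the 4 time points. Of these 28 genes 8 (28.6%) had their lowest value on the PNY array of 1 day, beside the 15.2% of all probe sets. This share was 30.8% for alveolar type II genes and 21.7% for V-ATPase and lysosome genes. It was 5.56% for interstitial and 11.8% for serosal macrophage genes. Siglecf, the lectin that marks alveolar macrophages and eosinophils, had 7.67, 7.21, 7.13 and 7.37 in PNY, against 7.46, 7.56, 7.68 and 7.52 in SHAM. It lay lower in PNY after 6 hours, with a mean difference of -0.21 ± 0.32 (SD over 4 time points). Siglecf was named outside the rule for naming genes and does not stand for the list. The median of the mean differences over the 28 genes was -0.02. The largest mean differences of the list were 0.36 ± 0.70 for the lipid binding protein Fabp4 and 0.29 ± 0.37 for Gpnmb, a glycoprotein of lysosomes, and neither passed. Fabp4 ranged from 1.07 at 6 hours to -0.61 at 3 days. Gpnmb was higher in PNY by 0.82 at 1 day and by 0.26, 0.08 and 0.00 at 6 hours, 3 days and 7 days.

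Genes around Pparg, from the GM-CSF receptor and its factors above it to lipid handling below it, were mostly lower in PNY after 6 hours, by small amounts. Of 25 such genes 0 passed the rank product test in either direction, and the median differences were 0.08, -0.10, -0.14 and -0.11. At 6 hours 8 of the 25 were lower in PNY, and 16, 21 and 19 were lower at the later time points in turn, while 10 had their lowest value on the PNY array of 1 day. Csf2ra, the binding chain of the GM-CSF receptor, had 8.69, 8.69, 9.22 and 9.15 in PNY, against 9.03, 9.04, 9.31 and 9.62 in SHAM, and its mean difference was -0.31 ± 0.16. The PU.1 gene Spi1 had 9.26, 8.99, 9.35 and 9.19 in PNY, against 9.40, 9.30, 9.51 and 9.64 in SHAM, with a mean difference of -0.27 ± 0.15. These and Csf2rb (-0.15), the signalling chain of the receptor, the macrophage factor Cebpa (-0.13) and Acaa1b were the 5 of the 25 genes lower in PNY at every time point, beside 6.05% of all probe sets. Csf2ra, Spi1, Csf2rb and Cebpa were named after their values had been seen. By the rule for naming genes the largest mean differences were -0.51 for the peroxisomal thiolase Acaa1b and 0.36 for Fabp4.

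Genes shared by most macrophages were lower in PNY at the last time point. The median over 19 such genes was 0.01, -0.12, -0.07 and -0.39 at 6 hours and 1, 3 and 7 days, and 0 of them passed the rank product test. At 1 day 16 of the 19 were lower in PNY, and 7 of the 19 had their lowest value on that PNY array. At 7 days 17 of the 19 were lower. The largest mean differences were -0.33 for the Fc receptor Fcgr1 and -0.24 for the lysosomal membrane protein Laptm5. The 17 serosal macrophage genes measured had a median of -0.70 at 7 days, and 5 of them fell by the rank product test (Cd5l, Alox15, Serpinb2, Prg4 and Arg1). Neutrophil genes had a median of -0.61 at 7 days over 14 genes, of which 0 passed. The SHAM array of 7 days is the one named above for its serosal macrophage genes, and its part in the values of the alveolar macrophage genes was not tested. The median of the mean differences of the 9 genes, -0.11 over all arrays, was -0.07 without this SHAM array and -0.13 without the arrays of 7 days of both surgeries.

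**Figure D4:**
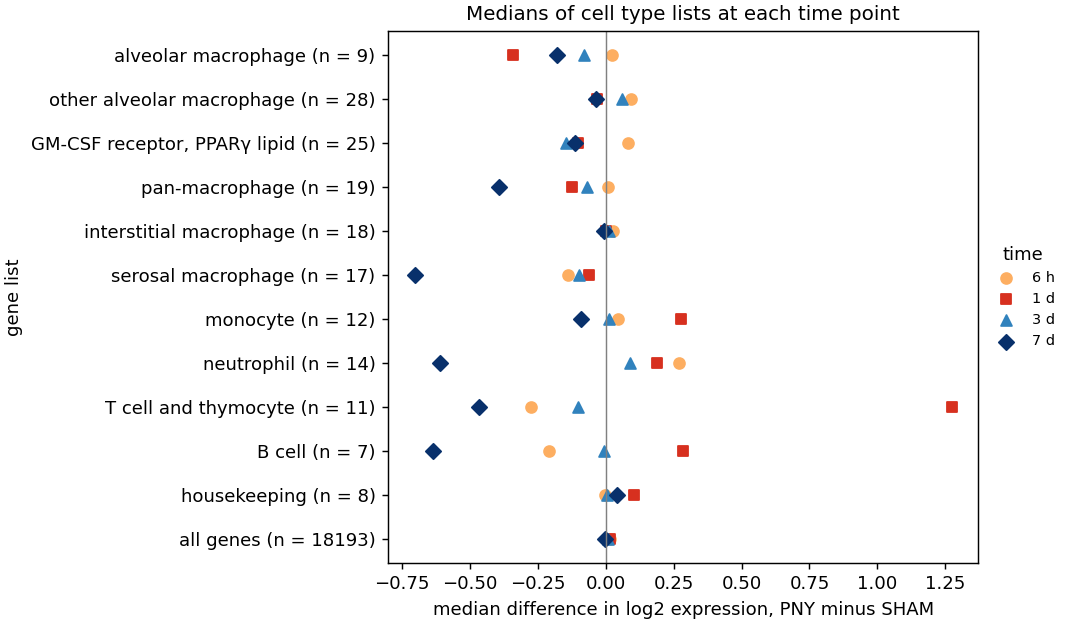
Median difference in log2 expression, PNY minus SHAM (horizontal axis), of 10 marker lists, of housekeeping genes and of all genes (vertical axis, with the number of genes measured), with 1 symbol per time point. The alveolar macrophage genes lie at -0.34 at 1 day, where T cell and thymocyte genes lie at 1.27, and serosal macrophage genes lie at -0.70 at 7 days.

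Cells that share markers with alveolar macrophages gave these values. Of 18 interstitial macrophage genes and of 15 dendritic cell genes, which share Mrc1 and Itgax with the group, 0 passed the rank product test in either direction, and neither list had a median beyond 0.12 in size at any time point. Of 12 eosinophil genes Rnase2a, a ribonuclease of the Ear family, rose and Alox15 fell. Rnase2a had 4.06, 4.45, 7.20 and 3.82 in PNY, against 4.22, 3.96, 3.86 and 4.06 in SHAM, so a single array, that of PNY at 3 days, carried its rise. The eosinophil granule genes Prg2 and Epx lay between 3.43 and 4.21 on all 8 arrays, near the bottom of the scale. Of 14 adipocyte genes, which share Pparg, Car3 rose, and the median difference was 0.38 at 6 hours and between -0.24 and 0.10 later. Of the 12 monocyte genes, the 10 genes of lymphatic and sinusoidal endothelium (which share Mrc1), the 23 V-ATPase and lysosome genes and the 13 alveolar type II genes measured 0 passed. The 16 clock genes measured besides Bhlhe41 had median differences of -0.21, -0.34, -0.11 and -0.16 at the 4 time points. At 1 day this was as low as the median of the alveolar macrophage genes. Of the 16, 7 were lower in PNY at every time point, beside 6.05% of all probe sets, and 1 fell by the rank product test. Only 6.25% of them had their lowest value on the PNY array of 1 day. For comparison, 10 of 12 proliferation genes rose in PNY, with a median difference of 1.06 at 3 days and 1.57 at 7 days.

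Some single genes differed between time points. Of the 9 genes Marco and Krt79 passed the limma F-test over the time points, with adjusted p of 0.0266 and 0.0218, beside 3.18% of all probe sets. Marco was lower at 6 hours than later, as were 5.15% of all probe sets by the same test. Its mean over both surgeries was 7.87 at 6 hours and 7.90 at 1 day, but 8.75 at 3 days and 8.62 at 7 days. The difference of 6 hours from the mean of the later time points was -0.55 ± 0.12 (SE, 8 arrays), with a limma adjusted p of 0.0281, and it was -0.36 in PNY and -0.74 in SHAM. Since 1 day was as low as 6 hours, the step lies between 1 and 3 days in both surgeries. The other probe set of Marco had -0.30, with a limma adjusted p of 0.165.

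Krt79 was higher at 6 hours than later, as were 3.37% of all probe sets. Averaged over both surgeries it was highest at 6 hours, with 9.11, and had 8.13, 8.45 and 8.58 at the later time points, so it was lowest at 1 day and part of the difference was regained. The difference of 6 hours from later was 0.73 ± 0.10 (SE, 8 arrays), a fold change of 1.65, with a limma adjusted p of 0.0054, and it was 0.78 in PNY and 0.67 in SHAM. In this contrast, without the PNY or the SHAM array of 6 hours neither gene passed, with limma adjusted p between 0.0588 and 0.268, and Marco also missed the threshold when the PNY array of 3 days, the SHAM array of 3 days or that of 7 days was left out. In the F-test neither gene passed when any array of 6 hours or 3 days was left out, with limma adjusted p between 0.0662 and 0.172, and Krt79 had 0.0520 without the PNY array of 1 day.

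The other 7 genes did not pass the tests over time when all probe sets were tested with the standard prior. Fabp1 was highest at 1 day in both surgeries, and its difference of 6 hours from later was -0.36, with a limma adjusted p of 0.0784. It passed this limma test with only probe sets above the median level tested (adjusted p = 0.0304) and with a trended and robust prior (adjusted p = 0.0388). Mrc1 had 0.33, with a limma adjusted p of 0.185, and its difference was 0.53 in PNY and 0.12 in SHAM. Itgax, Pparg, Atp6v0d2, Plet1 and Bhlhe41 lay between -0.13 and 0.21, with limma adjusted p between 0.317 and 0.928. Bhlhe41, the clock repressor, had 0.18, with a limma adjusted p of 0.483. Of 16 other clock genes 9 were higher at 6 hours and 2 lower by the same limma test, among them Dbp, an output gene of the clock, by 1.81. Among the other alveolar macrophage genes 4 of 28 passed, with the lipoprotein lipase Lpl (0.58) and the receptor Trem1 (0.68) higher at 6 hours and the carbonic anhydrase Car4 (-0.45) and the lipid binding protein Fabp5 (-0.41) lower. Of the 25 genes of GM-CSF and lipid handling 7 passed. Pdk4 and Angptl4, both induced by fasting and by PPAR receptors, were higher at 6 hours by 2.80 and 1.86, with limma adjusted p of 0.000596 and 0.000415. The methods of the paper do not give the time of day of surgery or of tissue collection, so time of day and time after surgery cannot be told apart.

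The genes varied together only in part. Over the 8 arrays 26 of the 36 pairs of genes had a positive Pearson r, with a median of 0.32. Atp6v0d2 and Mrc1 had the highest r, 0.85, and Fabp1 and Atp6v0d2 the lowest, -0.48. Marco and Itgax had 0.75, and Fabp1 had a negative r with 7 of the other 8 genes. These arrays share their time points and pools, and the coefficients are given as a description with no test. The genes outside the group whose 8 values were most like the mean of the 9 centred genes were Zfp869, a zinc finger gene (r = 0.95), Havcr2, the immune receptor TIM-3 (0.94), and Tyro3, a receptor kinase for the clearance of dying cells (0.94), among 12143 genes above the median level. Rnf114, Plekho2, B4galt5, Cd200r1, Elapor1, Dyrk3 and Ltc4s followed, with r between 0.91 and 0.93. Cd200r1 encodes an inhibitory receptor of myeloid cells and Ltc4s the leukotriene C4 synthase. All 10 were lower in PNY at 1 day, by 0.19 for Plekho2 to 0.60 for Havcr2, which the choice by likeness favours.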

How the data were processed

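Affymetrix mouse arrays, 8 in all, measured RNA of lung tissue. The authors converted the scans into log2 values with RMA, by background correction, quantile normalization and summarization to 1 value per probe set, and the deposited log2 values were used without a pseudocount or filter. Quantile normalization gives the arrays like distributions, so a shift of all genes cannot be seen. Of 45101 probe sets 64 controls were left out. Among the rest, 34945 carried 1 gene symbol, 932 several and 9160 none. The alveolar macrophage genes and the marker lists were chosen with earlier results of these data known. The rule for naming genes of other lists took those past the rank product test or, where none passed, the 2 with the largest mean differences. It was not followed for every list. Some lists have only counts and medians, and some genes were named as markers or by their values over time.

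Rank products, the test in the methods of the paper, were coded in Python 3.11.15 (numpy 2.4.6, pandas 2.3.3, scipy 1.17.1). They ran over the 16 PNY and SHAM pairs with 1000 permutations (100 for alternatives), taking time points as replicates. limma 3.58.1 in R 4.3.3 gave intervals and adjusted p (Benjamini-Hochberg over 45037 probe sets) under 0.05. For the time tests it had a term for surgery. Exact permutation tests were two-sided over 70 splits. No p-value measures the spread between mice, or between pools of the same surgery and time point. The rank product P-value comes from values permuted over probe sets within each array. In limma without the block and in the exact test, the spread between arrays of a surgery includes changes over time. Each array was set against the mean of its surgery, and these deviations correlated over probe sets between the PNY and SHAM arrays of a time point (r between 0.295 and 0.605), so the time point was also used as a block. Scripts were tested on simulated data. Alternatives were centring, repeated quantile normalization, a filter at the median level, each array or time point left out, a robust trended prior, and the mean of the probe sets of a gene.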

Additional observations from a re-analysis of the deposited data

How the results depend on the processing

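The counts of alveolar macrophage genes past the rank product test and past limma for PNY against SHAM stayed at 0 under every alternative tried, the time point as a block included. The median difference between PNY and SHAM lay between -0.207 and -0.0255 when single arrays were left out, and the 7 genes lowest on the PNY array of 1 day kept that count under both other normalizations and with the mean of all probe sets of a gene, alternatives chosen after seeing the data. The 3 genes lower in PNY at every time point became 2 with that mean. The genes past the limma F-test over time numbered 2, but 4 with the trended and robust prior (Itgax and Fabp1 added), 3 with only probe sets above the median level tested (Fabp1 added) and 0 to 2 when single arrays were left out. For 6 hours against later the number was 2, but 3 under each of these settings (Fabp1 added), and 0 to 2 with single arrays left out. Small differences changed sign. PNY minus SHAM lay between -0.219 and 0.0651 for Itgax, between -0.176 and 0.0462 for Atp6v0d2 and between -0.177 and 0.0727 for Mrc1 over the arrays left out, and was 0.0168 for Itgax and 0.0791 for Mrc1 without both arrays of 1 day. The difference of 6 hours from later lay between -0.215 and 0.126 for Pparg, between -0.0590 and 0.0971 for Plet1 and between -0.0546 and 0.413 for Bhlhe41 over the arrays left out. It was 0.00086 for Pparg with quantile normalization once more, 0.126 for Pparg and -0.0546 for Bhlhe41 within PNY, and -0.0590 for Plet1 within SHAM. The cause of these changes was not tested. Leaving out arrays leaves fewer samples, and with 1 pool per surgery and time point the spread between mice is unknown.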
